A study of Mus musculus with 4 samples.

Results

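The STAT transcription factors and the SOCS family genes that feed back on them were followed in tumor-infiltrating CD8+ T cells as 9 genes chosen by name: Stat2, Stat3, Stat4, Stat5a, Stat5b, Stat6, Socs1, Socs3 and Cish. They are 9 of the 7963 genes that the replicate 2 tables of both groups reach, and of 15981 genes listed in any table. The 4 libraries hold total RNA of Thy1.1+ Pmel-1 T cells of the CD8+ kind and the C57BL/6 strain, which carry a transgenic T cell receptor against the melanocyte antigen gp100. The cells were polarized in culture for 5 days as Tc1 or Tc9 and injected into the blood of Thy1.2+ B6 mice that bore subcutaneous B16 melanoma grown for 10 days. They were sorted from the tumors 14 days later. Tc1 is the interferon-γ–secreting type and Tc9 the IL-9–secreting type. By the study's methods, Tc9 cells were made with IL-4, TGF-β and an antibody that blocks IFN-γ, and Tc1 cells with recombinant human IL-2. Recipients in this tumor model received cyclophosphamide, peptide-pulsed dendritic cells and recombinant human IL-2 besides the T cells, whichever type they were given. RNA of several mice was pooled into 2 libraries per group, and how many mice stand behind each library is not stated.

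STAT proteins lie latent in the cytoplasm until a cytokine receptor and its Janus kinases phosphorylate them, after which they pair, enter the nucleus and bind DNA. In T cells, STAT5 carries the IL-2 signal, STAT6 the IL-4 signal, STAT4 the IL-12 signal, STAT3 the signals of IL-6, IL-10 and IL-21 and much of the IL-9 signal, and STAT2 the type I interferon signal. Socs1, Socs3 and Cish encode SH2 proteins that STATs switch on and that damp the receptor or its kinases in return. RNA levels report how much transcript was present, not how much STAT protein was phosphorylated.

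The tables list genes by identifier and stop at different points, so the members were not seen in equal numbers of libraries. Tc1 replicate 1 lists 1535 genes and reaches none of the 9. Tc9 replicate 1 lists 3151 genes and reaches the 3 SOCS family genes. Tc1 replicate 2 and Tc9 replicate 2, with 7407 and 15442 genes, reach all 9. The 6 STAT genes therefore have 1 library a group and no replicate check, and the 3 SOCS family genes have 1 Tc1 and 2 Tc9 libraries. Depth was between 30823000 and 31927000 counts per library. For scale, the 2 Tc9 libraries differed from each other by a median of 0.20 on the log2 scale over 1561 genes with at least 500 counts in both, and 95% of those genes differed by 0.49 or less. The 2 Tc1 libraries differed by a median of 0.05, and 95% of 788 genes by 0.16 or less, over the shorter stretch both reach. A chi-square of their counts came to 4.40 per gene, and that of the Tc9 pair to 40.3, where sampling noise alone gives about 1.

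Of the 5 genes with a motif that a STAT complex is known to bind, promoter sequence is shown for 4, the SOCS family genes and Stat2. The RefSeq windows (build GRCm38.p6) run from 250 bases before a transcript start to 50 bases after it. There were 12 windows for the 9 genes, at least 1 for each. The motifs searched were 3, each read on both strands: TTCNNNGAA, the element that most STAT dimers bind, TTCNNNNGAA, the wider form that STAT6 prefers, and GAAANNGAAA, the core of the interferon response element that the STAT2 complex binds. Capitals mark the matches.

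Cish, chr9:107296409-107296708, plus strand: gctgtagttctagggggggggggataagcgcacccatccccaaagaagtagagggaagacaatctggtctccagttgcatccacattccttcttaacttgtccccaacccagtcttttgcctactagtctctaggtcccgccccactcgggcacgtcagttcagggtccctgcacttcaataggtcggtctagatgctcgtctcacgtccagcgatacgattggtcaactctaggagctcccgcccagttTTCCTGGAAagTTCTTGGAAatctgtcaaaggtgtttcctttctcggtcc
Socs3, chr11:117969317-117969616, minus strand: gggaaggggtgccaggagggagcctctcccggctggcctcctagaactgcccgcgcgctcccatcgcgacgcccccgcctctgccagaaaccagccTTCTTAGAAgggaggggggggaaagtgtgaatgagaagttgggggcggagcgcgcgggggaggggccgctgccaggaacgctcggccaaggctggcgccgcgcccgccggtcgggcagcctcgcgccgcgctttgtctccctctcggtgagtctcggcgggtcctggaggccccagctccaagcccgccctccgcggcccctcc
Socs1, chr16:10785487-10785786, minus strand: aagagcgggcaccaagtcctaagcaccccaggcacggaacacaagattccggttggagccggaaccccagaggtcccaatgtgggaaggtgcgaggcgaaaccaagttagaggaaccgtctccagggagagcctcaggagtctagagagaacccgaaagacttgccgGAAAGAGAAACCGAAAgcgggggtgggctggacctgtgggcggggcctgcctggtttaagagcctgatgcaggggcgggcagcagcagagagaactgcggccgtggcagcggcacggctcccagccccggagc
Stat2, chr10:128270248-128270547, plus strand: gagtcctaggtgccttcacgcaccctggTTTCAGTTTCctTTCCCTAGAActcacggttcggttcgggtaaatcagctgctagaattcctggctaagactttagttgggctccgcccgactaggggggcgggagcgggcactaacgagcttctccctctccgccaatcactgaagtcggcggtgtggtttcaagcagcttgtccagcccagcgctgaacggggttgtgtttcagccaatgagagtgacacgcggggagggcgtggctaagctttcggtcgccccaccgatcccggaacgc

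The Cish window held 2 copies of TTCNNNGAA, TTCCTGGAA at the first transcribed base and TTCTTGGAA 11 bases further on. Socs3 held 1, TTCTTAGAA, 154 bases upstream of the start. Socs1 held no TTCNNNGAA but 2 overlapping copies of GAAANNGAAA, 83 and 77 bases upstream. Stat2 held TTTCAGTTTC, the reverse strand of GAAANNGAAA, 222 bases upstream, and TTCCCTAGAA, a TTCNNNNGAA, 210 bases upstream. The second of the Stat4 windows held GAAAGTGAAA, 97 bases upstream. No match of any of the 3 motifs stood in the windows of Stat3, Stat5a, Stat5b or Stat6. Among all 32851 windows, 8.3% held TTCNNNGAA, 6.95% TTCNNNNGAA and 3.44% GAAANNGAAA, and the members with each numbered 2, 1 and 3 of 9. A match is a run of letters in this window and was not measured as bound.

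All 9 transcripts were present in both types of cell, at levels from 10.3 to 194 FPKM (fragments scaled by transcript length and by the size of the library). Each had a higher scaled count in Tc9 replicate 2 than in Tc1 replicate 2, while 52.4% of the 6160 genes that passed the filter on low counts in these libraries were higher. The log2 ratio of Tc9 replicate 2 over Tc1 replicate 2 ran from 0.05 for Stat4 to 1.31 for Socs1, with a median of 0.67 over the members and 0.03 over all 6160 genes. Ratios past 1.5-fold were seen for 6 of 9 members, 4 STAT genes and 2 SOCS family genes, and for 20.7% of all genes. A 2-fold ratio was passed by Socs1 alone, and by 10.5% of all genes, with no member and 4.72% of all genes 2-fold lower. The members are strongly expressed genes with 865 counts or more, and among the 3588 genes with at least 500 counts in both libraries 11.1% were past 1.5-fold. Because these are sorted populations and not single cells, fewer cells of a type and less RNA per cell cannot be told apart.

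**Figure D1:**
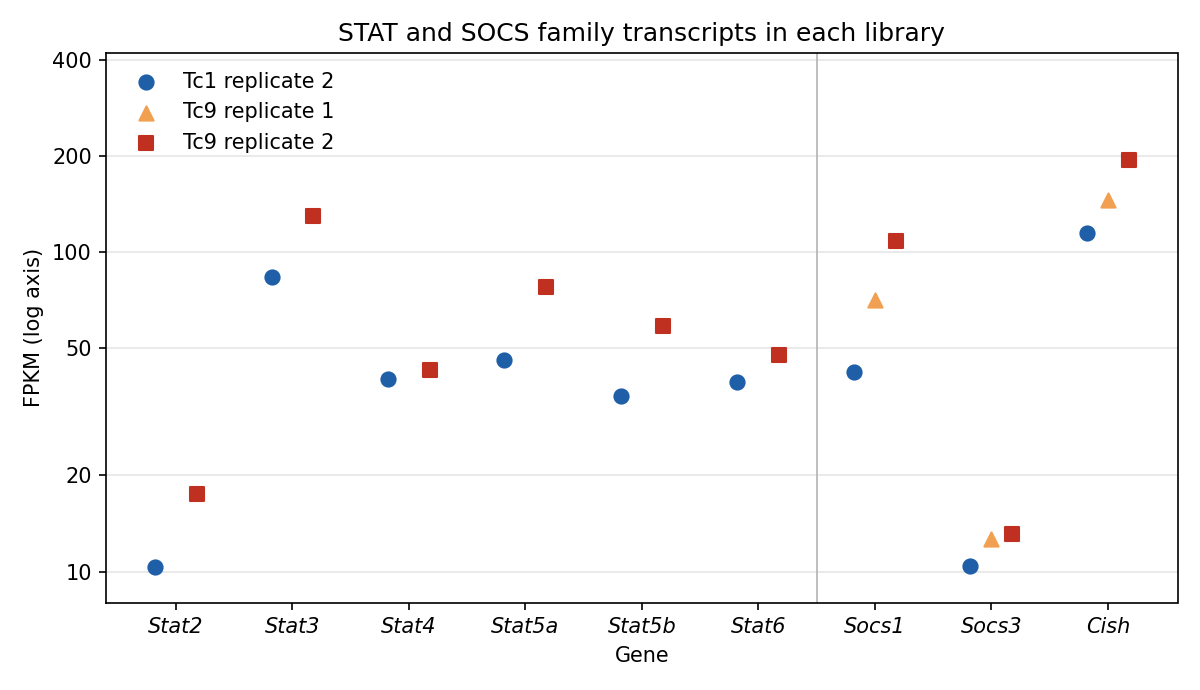
Level of each STAT and SOCS family transcript in FPKM, on a log axis, with 1 point per library that reaches the gene (Tc1 replicate 2, Tc9 replicate 1 and Tc9 replicate 2). Cish is the highest in both groups, at 114 FPKM in Tc1 replicate 2 and 194 FPKM in Tc9 replicate 2, and the Stat4 points lie closest together.

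Stat3, which transmits IL-6-type and IL-9 signals, was the most abundant of the 6 STAT transcripts in both libraries. It had 11687 counts and 83.5 FPKM in Tc1 replicate 2 and 17520 counts and 130 FPKM in Tc9 replicate 2. Its log2 ratio was 0.58 (95% interval 0.55 to 0.62), a fold of 1.5 that sits on the 1.5-fold line itself, and 20.7% of genes had a higher ratio. The interval, like all such intervals here, comes from the counts of 1 library a group and covers counting error only. With scaling factors taken from the replicate 2 libraries over all genes both reach, the Stat3 ratio was 0.55 and below 1.5-fold, and 3 STAT genes were then past it. The other settings gave higher Stat3 ratios, 0.63 on FPKM + 1, 0.64 on FPKM + 0.1 and 0.63 with scaling by depth alone.

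Stat5a and Stat5b, the neighboring genes that encode the IL-2-driven STAT5 proteins, had nearly the same ratio. Stat5a had 5482 counts and 46.1 FPKM in Tc1 replicate 2 and 8976 counts and 77.8 FPKM in Tc9 replicate 2. Stat5b had 5452 counts and 35.6 FPKM in Tc1 replicate 2 and 8661 counts and 58.6 FPKM in Tc9 replicate 2. Both were thus higher in the Tc9 library. The log2 ratio was 0.71 (0.66 to 0.76) for Stat5a and 0.67 (0.62 to 0.72) for Stat5b, and their difference, 0.04, had an interval of -0.03 to 0.11. These were the 2 members with fractional counts, which arise when a read that matches several transcripts is divided among them. Their sum was a whole number in each library, 10934 and 17637, so reads were divided between them, and the log2 ratio of the sum was 0.69 (0.66 to 0.73). In the GENCODE transcripts, 3.44% of the 100-base windows of Stat5a also occur in Stat5b, and 4.79% of those of Stat5b in Stat5a. With 50-base windows these were 8.21% and 10.98%. How reads were split between the pair is therefore uncertain. Stat5a took 50.1% of the summed count in Tc1 replicate 2 and 50.9% in Tc9 replicate 2.

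Stat2, the interferon-specific partner in the STAT2 and IRF9 complex, was the lowest of the 6 STAT transcripts. It had 1434 counts and 10.3 FPKM in Tc1 replicate 2 and 2337 counts and 17.5 FPKM in Tc9 replicate 2. Its log2 ratio, 0.70 (0.61 to 0.80), lay beside that of Stat5a, and the difference between them had an interval of -0.11 to 0.10.

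Stat6 and Stat4, the IL-4 and IL-12 factors, had the lowest ratios. Stat6 had 4588 counts and 39.2 FPKM in Tc1 replicate 2 and 5401 counts and 47.8 FPKM in Tc9 replicate 2, a log2 ratio of 0.24 (0.18 to 0.29). Stat4 had 3378 counts and 40.1 FPKM in Tc1 replicate 2 and 3489 counts and 42.8 FPKM in Tc9 replicate 2, a log2 ratio of 0.05 (-0.02 to 0.12). Stat4 was the single member whose counting interval held 0. Of its 100-base windows, 17.98% also occur in Gm28177 (21.7% of its 50-base windows), another GENCODE gene, so its count can hold reads of that locus. Both ratios were inside the 0.49 that held 95% of genes between the 2 Tc9 libraries. The ratios of Stat2, Stat3, Stat5a and Stat5b were outside it. Many other genes were too, since the upper quartile of the ratios of all 6160 genes was 0.47. Over 3588 genes with at least 500 counts in both replicate 2 libraries, the median difference was 0.30, and 95% differed by 0.96 or less.

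Set against each other within these libraries, the STAT genes formed a group of 4 with ratios between 0.58 and 0.71 and a pair at 0.24 or below. The Stat3 ratio exceeded that of Stat4 by 0.54 (0.46 to 0.61) and that of Stat6 by 0.35 (0.28 to 0.41). It was smaller than that of Stat5a by 0.13 (interval of Stat3 minus Stat5a -0.19 to -0.07). In these libraries Stat3 thus had the lowest ratio of the group of 4, and the highest level. The intervals cover counting error only. The differences from Stat5a and Stat6 were smaller than the 0.49 that held 95% of genes between the Tc9 libraries. The FPKM of the 6 summed to 255 in Tc1 replicate 2 and 374 in Tc9 replicate 2, which is 1.47 times as much. Within the sum, Stat3 held 32.8% in Tc1 replicate 2 and 34.7% in Tc9 replicate 2. Stat5a held 18.1% and 20.8%, Stat5b 14.0% and 15.7%, and Stat2 4.06% and 4.67%. Stat4 held 15.7% in Tc1 replicate 2 and 11.4% in Tc9 replicate 2, and Stat6 15.4% and 12.8%. The make-up of the STAT pool thus differed by at most 4.29 percentage points, the lower share of Stat4 in the Tc9 library. No spread between replicates is known for these shares.

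Stat5b, Stat5a and Stat3 are neighbors. On chromosome 11 (RefSeq, GRCm38.p6), Stat5b runs from 100780731 to 100859004 on the minus strand, Stat5a from 100859351 to 100885169 on the plus strand and Stat3 from 100886806 to 100939594 on the minus strand, a cluster of 158864 bases. Stat5b and Stat5a start head to head. The log2 ratios across the cluster were 0.67, 0.71 and 0.58 in that order. Stat6 (127642955 to 127660987) and Stat2 (128270498 to 128292853), both on the plus strand of chromosome 10, are separated by 609510 bases and had ratios of 0.24 and 0.70. Stat4 lies on chromosome 1 (51987106 to 52107189, plus strand), Socs3 on chromosome 11 (117966079 to 117970336, minus strand), Socs1 on chromosome 16 (10783808 to 10785536, minus strand) and Cish on chromosome 9 (107296659 to 107302784, plus strand).

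**Figure D2:**
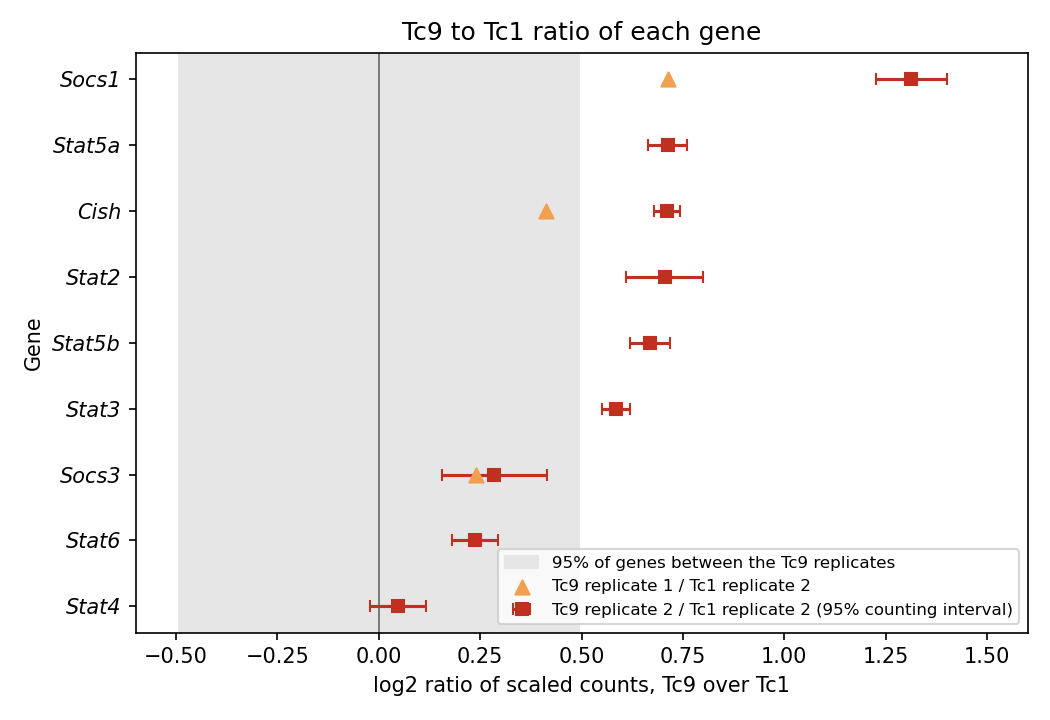
Log2 ratio of each member between a Tc9 library and Tc1 replicate 2, with bars for the 95% counting interval of the replicate 2 ratio. Ratios run from 0.05 for Stat4 to 1.31 for Socs1, and for the 3 SOCS family genes the ratio of Tc9 replicate 1 is smaller than that of Tc9 replicate 2.

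Socs1, the feedback inhibitor that binds and blocks Janus kinases, was the member that rose. It had 1467 counts and 42.3 FPKM in Tc1 replicate 2, 2404 counts and 70.6 FPKM in Tc9 replicate 1, and 3646 counts and 108 FPKM in Tc9 replicate 2. Both Tc9 libraries were above the Tc1 library, but they also differed from each other by 0.60 on the log2 scale, which is beyond the 0.49 of most genes. In the quasi-likelihood test of edgeR over the 3 libraries, the log2 fold change was 1.01 ± 0.27 (SE, 1 Tc1 and 2 Tc9 libraries), a fold of 2.02, with a Benjamini-Hochberg adjusted p of 0.00157 over 2622 genes. In that test 12.5% of genes rose in Tc9 and 7.93% fell, and 1 of 3 members tested rose. The log2 ratio to Tc1 replicate 2 was 0.71 with Tc9 replicate 1 alone and 1.31 with Tc9 replicate 2 alone. The spread in this test is a trend over all genes tested, drawn from the 2 Tc9 libraries. The 0.60 between the Socs1 values is therefore not weighed on its own in the SE or the p-value. The lone Tc1 library is assumed to vary as the Tc9 libraries do. Nothing in the labels says that the libraries come from separate animals, so the p-values rest on a spread between libraries that may be technical. In limma on log2(FPKM + 0.1) the adjusted p was 0.104, and without the filter on low counts it was 0.312, with nearly the same log2 fold change.

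Cish, the STAT5-induced inhibitor named for its cytokine response, was the most abundant of the 9 members in both replicate 2 libraries, and of the 3 SOCS family genes in Tc9 replicate 1. It had 12510 counts and 114 FPKM in Tc1 replicate 2, 16652 counts and 146 FPKM in Tc9 replicate 1, and 20461 counts and 194 FPKM in Tc9 replicate 2. Both Tc9 libraries lay above the Tc1 library, and the Tc9 libraries differed by 0.30 on the log2 scale. The log2 fold change over the 3 libraries was 0.54 ± 0.25 (SE; 95% interval 0.05 to 1.03), with an adjusted p of 0.110 in edgeR, and so did not pass the threshold. The counting interval of its replicate 2 ratio, 0.71, ran from 0.68 to 0.74.

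Socs3, the inhibitor of the IL-6 receptor chain gp130, was the least abundant of the 3. It had 865 counts and 10.4 FPKM in Tc1 replicate 2, 1022 counts and 12.6 FPKM in Tc9 replicate 1, and 1053 counts and 13.1 FPKM in Tc9 replicate 2. The Tc9 libraries were close to each other (0.04) and both a little above the Tc1 library. The log2 fold change was 0.23 ± 0.25 (SE) with an adjusted p of 0.558 in edgeR, and the 95% interval, -0.25 to 0.72, holds both no change and the log2 fold change of Cish. All 3 SOCS family genes had both Tc9 libraries above the Tc1 library, as did 44% of the 2622 genes tested.

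By level, the 9 members kept much of their order in the 2 types of cell. In Tc1 replicate 2 the order in FPKM was Cish, Stat3, Stat5a, Socs1, Stat4, Stat6, Stat5b, Socs3 and Stat2. In Tc9 replicate 2 it was Cish, Stat3, Socs1, Stat5a, Stat5b, Stat6, Stat4, Stat2 and Socs3. In the Tc1 library, Stat5a, Socs1, Stat4, Stat6 and Stat5b followed one another at gaps of at most 0.14 on the log2 scale, well inside the 0.49 spread between Tc9 libraries. Larger gaps stood between Stat3 and Stat5a (0.86) and between Stat5b and Socs3 (1.77). In the Tc9 library the gaps outside 0.49 were those between Cish and Stat3 (0.58) and between Stat4 and Stat2 (1.29). Among the 6160 genes, ranked by mean FPKM of the replicate 2 libraries, Cish stood at 307, Stat3 at 453, Socs1 at 648 and Socs3 at 2779.

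**Figure D3:**
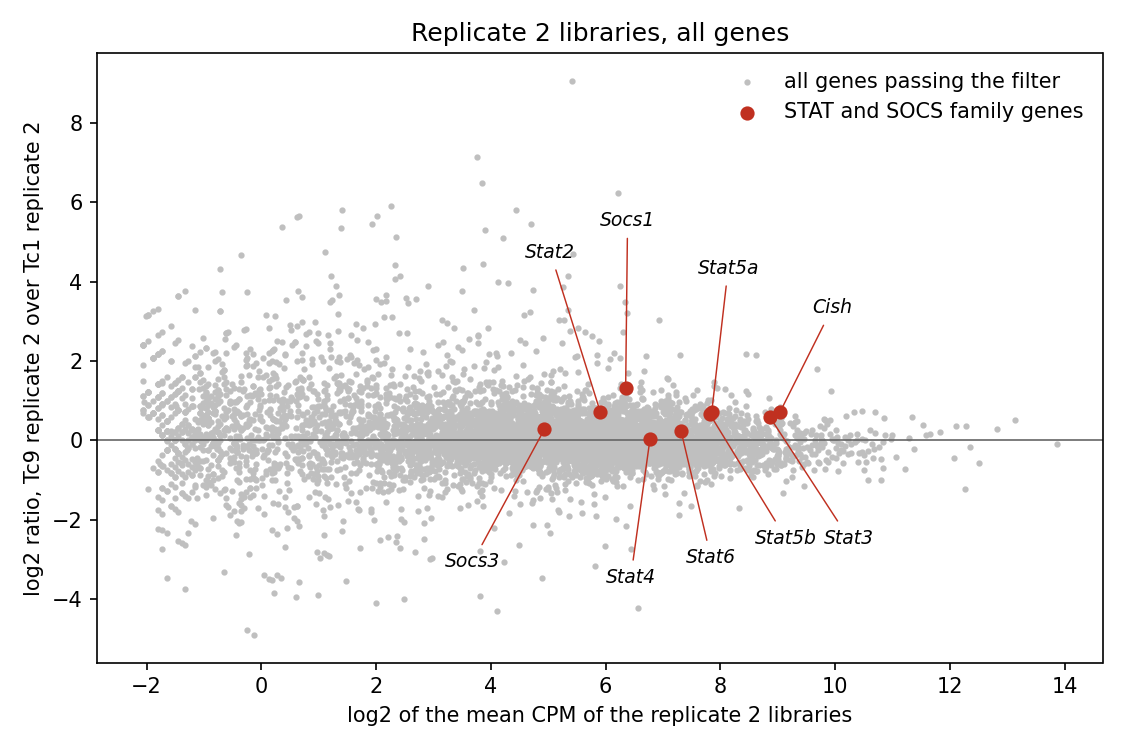
Log2 ratio of Tc9 replicate 2 over Tc1 replicate 2 against the log2 mean CPM (counts scaled by library size) for the 6160 genes that passed the filter (gray), with the 9 members in red. The members lie between 0.05 and 1.31, all above 0, within the cloud of other genes, whose middle 50% runs from -0.33 to 0.47.

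The Janus kinases, which phosphorylate the STATs, were reached by 3 libraries for 3 of the 4 genes, and 2 of the 3 rose, beside 12.5% of all genes in that test. Jak3, the kinase of the common γ chain, had 54.1 FPKM in Tc1 replicate 2 and 81.3 and 133 FPKM in the Tc9 libraries, with a log2 fold change of 0.92 ± 0.26 (SE) and an adjusted p of 0.00394 in edgeR. Jak2 had 15.6 FPKM against 35.1 and 27.3 FPKM, and its log2 change was 0.93 (adjusted p = 0.0043). Jak1 had 56.9 FPKM against 78.3 and 80.01 FPKM and did not pass (log2 0.40, adjusted p = 0.276). Both calls, and every other call over 3 libraries given here, are lost in edgeR without the filter on low counts, where 0 genes passed the adjusted threshold and 359 were higher and 252 lower at an unadjusted p under 0.05. The other SOCS genes, of which 2 of 5 were reached, had 1 library a group. Socs2, a further STAT5-responsive inhibitor, had 42.7 FPKM in Tc1 replicate 2 and 103 FPKM in Tc9 replicate 2, a log2 ratio of 1.22, and Socs7 had 6.80 and 8.32 FPKM, a ratio of 0.26.

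Negative regulators outside the SOCS family were split in direction, near the share of all genes. Of 9 reached, 5 were higher and 4 lower in Tc9 replicate 2 (52.4% and 47.6% of all genes). Their median log2 ratio was 0.01, beside 0.03 over all genes. In each direction 1 was past 1.5-fold, beside 20.7% higher and 12.5% lower among all genes. Cbl, a ubiquitin ligase, was tested in all 4 libraries, where 17.4% of 1284 genes rose and 16.7% fell. Its log2 fold change was 0.52 ± 0.10 (SE) with an adjusted p of 0.00408 in edgeR. Over 3 libraries its adjusted p was 0.171. Ptpn6, the phosphatase SHP-1, had a value of -0.52 there (adjusted p = 0.136). Ptpn1 and Ptpn2, phosphatases of Janus kinases and STATs, had ratios of 0.19 and -0.05, and Cblb, a ligase that restrains T cell activation, had a ratio of -0.62 (37.0 and 24.9 FPKM).

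Of the 19 receptor chains that signal through the members, 17 were reached by 3 libraries, and 5 rose and 1 fell, beside 12.5% and 7.93% of all genes tested. Il4ra, the IL-4 receptor chain that recruits STAT6, had 72.5 FPKM in Tc1 replicate 2 and 219 and 263 FPKM in the Tc9 libraries, a log2 fold change of 1.66 ± 0.25 (SE; edgeR adjusted p = 1.27e-09). Il6ra and Il6st, the chains of the IL-6 receptor, had log2 fold changes of 2.37 and 0.88, the former from 0.80 FPKM in Tc1 replicate 2 to 4.29 and 4.47 FPKM. Ifngr2, an interferon-γ receptor chain, had a log2 fold change of 1.59 and Il2ra, the high-affinity IL-2 receptor chain, 0.59 (adjusted p = 0.0362). Il10rb, shared by the IL-10 and type III interferon receptors, fell by 0.73 on the log2 scale. Il2rb (0.56, adjusted p = 0.0651) and Il2rg (-0.10, adjusted p = 0.831) did not pass. Il9r, the IL-9 receptor, was at 23 counts in Tc1 replicate 2 and at 11 and 10 in the Tc9 libraries, with an edgeR adjusted p of 0.179. It falls outside the rule for named genes and was chosen after its values were seen.

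Genes known to be controlled by each STAT were followed in lists named for that STAT. Their calls over 3 libraries, those of Gata3, Ifng and Il10 included, are likewise lost without the filter. STAT6-linked genes had 7 of 7 past 1.5-fold higher, with a median log2 ratio of 2.70, and 6 of 6 tested rose. Among all genes, 20.7% were past 1.5-fold higher and 12.5% rose over 3 libraries. Gata3, the type 2 regulator, went from 8.37 FPKM in Tc1 replicate 2 to 52.2 and 71.6 FPKM in the Tc9 pair, a log2 rise of 2.81 ± 0.30 (SE; edgeR adjusted p = 1.38e-18). The type 2 cytokines Il5, Il13 and Il4 rose by 3.78, 2.32 and 3.12 on the log2 scale, the last from 4 counts to 36 and 37, and the regulator Maf rose by 4.54 on that scale. With 4 counts in Tc1 replicate 2, Il4 passed the filter only through the Tc9 libraries, and without it 6 of 6 genes were past 1.5-fold higher, with a median of 2.74, and 5 of 5 tested rose. Nfil3, a leucine zipper factor, had 28.9 FPKM in Tc1 replicate 2 and 75.5 FPKM in Tc9 replicate 2. Stat6 itself had a ratio of 0.24 beside these.

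STAT4-linked genes had 3 of 5 past 1.5-fold lower and none higher, with a median of -1.46, and 3 of 4 tested fell. Among all genes, 12.5% were past 1.5-fold lower and 7.93% fell over 3 libraries. Ifng, the cytokine that defines Tc1 cells, had 441 FPKM in Tc1 replicate 2 and 139 and 133 FPKM in the Tc9 pair, a log2 change of -1.67 ± 0.25 (SE; edgeR adjusted p = 3.51e-10). The IL-18 receptor chains Il18r1 and Il18rap fell by 1.64 and 1.31 on the log2 scale. Il12rb2, a chain of the IL-12 receptor that recruits STAT4, had 55.9 FPKM against 76.0 and 84.1 FPKM and did not pass (0.47, adjusted p = 0.211). Furin, a protease, had a ratio of 0.06, and Stat4 itself 0.05.

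STAT2-linked interferon genes were mostly lower in Tc9 replicate 2 than in Tc1 replicate 2, opposite in sign to Stat2. Of 8 that passed the filter, 7 were lower, 5 of them past 1.5-fold, and the median was -0.75, while Stat2 had a ratio of 0.70. Among all genes 47.6% were lower, and 12.5% past 1.5-fold lower. Ifit3, at 49.8 counts in Tc1 replicate 2 and 41.8 in Tc9 replicate 2, was at 73.4 in Tc9 replicate 1, and 4 of the 8 have 1 library a group. Ifit3 falls outside the rule for named genes and was chosen after its values were seen. Isg15, a ubiquitin-like interferon product, had 21.0 and 22.6 FPKM in the Tc1 libraries and 2.98 and 2.89 FPKM in the Tc9 libraries. It fell by 2.92 ± 0.17 on the log2 scale (SE, edgeR over 4 libraries, adjusted p = 1.76e-06), as did 16.7% of the 1284 genes in that test by some amount. Over 3 libraries 2 of 4 tested fell, Isg15 and Ifit1, the latter by 0.75 on the log2 scale (adjusted p = 0.036), beside 7.93% of all genes in that test. Oasl1 had 6.78 and 0.85 FPKM and Usp18 6.26 and 4.28 FPKM in the replicate 2 libraries. Irf9, the DNA-binding partner of STAT2, differed by 0.27 over 3 libraries (adjusted p = 0.502).

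STAT5-linked genes were mixed. Of 9, 5 were higher and 4 lower (52.4% and 47.6% of all genes), with a median of 0.06, beside ratios of 0.71 and 0.67 for Stat5a and Stat5b. Il2ra rose, as given above. Lta, the cytokine lymphotoxin α, fell by 1.13 on the log2 scale over 3 libraries, and Ccnd2, cyclin D2, and Cdkn1a, the inhibitor p21, fell by 0.63 and 0.49 on that scale over 4 libraries (edgeR adjusted p = 2.63e-05, 0.00178 and 0.0163). Over 3 libraries Cdkn1a did not pass (adjusted p = 0.186). Pim2, a survival kinase, had 138 FPKM in Tc1 replicate 2 and 181 FPKM in Tc9 replicate 2. STAT3-linked genes had 4 of 6 higher with a median of 0.26, and 1 of 5 tested over 3 libraries rose, beside 52.4% of all genes higher and 12.5% risen. That gene was Il10, which went from 8 counts in Tc1 replicate 2 to 1094 and 891 in Tc9 replicates 1 and 2 (rise of 6.91 on the log2 scale, edgeR adjusted p = 6.56e-52). Il10 passed the filter only through the Tc9 libraries, and without it 3 of 5 genes were higher, with a median of 0.05, and 0 of 4 tested rose. Past 1.5-fold higher were 2 of 6, Il10 and Bcl3, and 0 were lower, beside 20.7% and 12.5% of all genes. Junb stood at -0.51 on the log2 scale without passing (adjusted p = 0.146) and Mcl1 at 0.06 (adjusted p = 0.906), and Pim1 had a log2 ratio of -0.33. Bcl3 had 8.28 and 7.88 FPKM in Tc1 and 8.74 and 15.65 FPKM in Tc9 (log2 0.55 over 4 libraries, edgeR adjusted p = 0.0835). Cpt1a, a STAT3 target in the paper, had 10.2 FPKM against 13.35 and 14.64 FPKM (log2 0.39 over 3 libraries, adjusted p = 0.306). Both fall outside the rule for named genes and were chosen after their values were seen. Il2ra, Il4ra, Il12rb2 and Pim1 stand in more than 1 list.

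**Figure D4:**
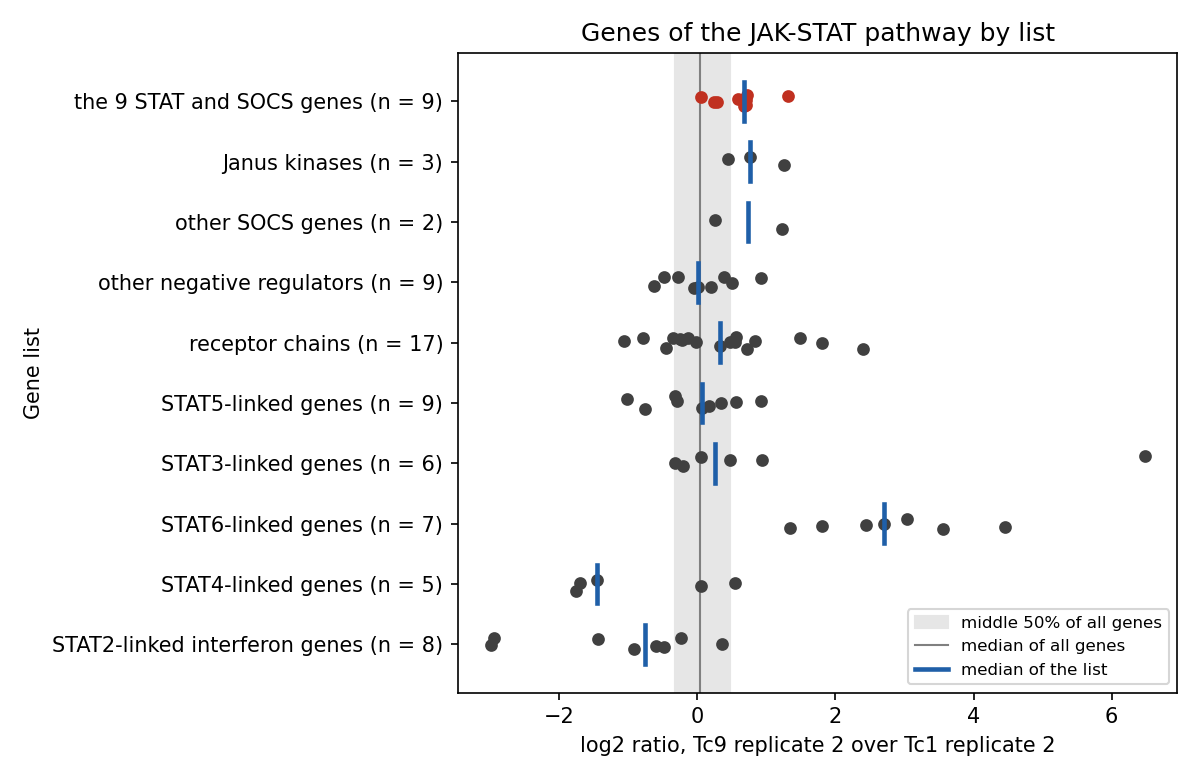
Log2 ratio of Tc9 replicate 2 over Tc1 replicate 2 for every gene of each pathway list that passed the filter, 1 point per gene, with the median of each list. STAT6-linked genes have a median of 2.70, STAT4-linked genes -1.46 and STAT2-linked interferon genes -0.75, beside 0.03 for all genes.

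The sorted cells carried the markers of CD8 T cells. All 10 of these were at 1 FPKM or more in both replicate 2 libraries and summed to 2198 FPKM in Tc1 replicate 2 and 2269 FPKM in Tc9 replicate 2. Markers of other cell types were low but not equal. Cd4 was at 45 to 58 counts in all 4 libraries. The CD4 T cell list summed to 0.98 and 14.4 FPKM in Tc1 replicate 2 and Tc9 replicate 2. Foxp3, the regulatory T cell factor and a known STAT5 target, was at 34.6 and 1592 counts, or 0.19 and 13.7 FPKM, and made up nearly all of the sum in Tc9 replicate 2 but not in Tc1 replicate 2. The myeloid list, with 9 of 12 genes reached, summed to 6.51 and 13.1 FPKM, nearly all of it Cd68, and 6 of its genes, Lyz2 among them, were at 3 counts or fewer in both. The B cell list summed to 4.64 and 14.1 FPKM, nearly all of it Cd79b. Natural killer cell markers summed to 0.17 and 0.02 FPKM, the 3 melanoma markers reached to 0.57 and 0.97 FPKM and stromal markers to 4.24 and 4.39 FPKM. Their part in the ratios of the 9 members was not tested.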

How the data were processed

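Tumor-infiltrating Tc1 and Tc9 cells were profiled by RNA sequencing in 2 libraries per group, and groups and replicate numbers were taken from the sample titles. Per the file headers, the authors deposited, for each library, expected counts per gene, which are not normalized, FPKM values, scaled by transcript length and library size, and the gene's length in bases. The genome build is mm10 per the submitters' processing notes; the aligner and the counting program are not given in the sources used here. The last row of 3 tables ended within a line and was dropped. A gene inside the range of a table but not listed was taken as 0 counts.

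Depth was 31834000 and 31927000 counts for Tc1 replicates 1 and 2 and 31106000 and 30823000 for Tc9 replicates 1 and 2, from the ratio of count to FPKM for genes of equal length in 3 libraries and from the full table of Tc9 replicate 2. In each, 3 counts correspond to 0.0952 to 0.0956 CPM (counts scaled by library size). Both the intervals and these floors cover counting error only: the reads carry no molecular identifiers, so several can stem from 1 molecule.

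Expected counts were rounded and tested in edgeR 4.0.16, run in R 4.3.3, by quasi-likelihood (two-sided, TMM scaling, filterByExpr with a minimum count of 10, Benjamini-Hochberg adjustment over all genes tested, threshold 0.05). The test was run over the genes in the range of all 4 libraries (1681 genes, 1284 tested) and of 3 libraries (3465 genes, 2622 tested). The latter had 1 residual degree of freedom and an infinite prior, so each gene took the spread of the trend over genes. Genes that only the replicate 2 libraries reach have a log2 ratio of scaled counts with a prior count of 2, TMM factors of the 4-library range (0.983 to 1.02 in all 4 libraries), a 95% Wilson interval and no test. The measure of likeness between genes was not computed, since 2 or 3 libraries hold no pattern. Alternatives used DESeq2 1.42.0, limma 3.58.1 on log2(FPKM + 1) and log2(FPKM + 0.1), other scalings, no filter, other folds, left-out libraries and a replicate block. Counts of the pathway lists without genes under 10 counts in a library were added after seeing the data.

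The members and lists were chosen with earlier results of these data known. All 9 members are named. Of each pathway list, at most 4 genes with the highest mean FPKM and every gene with an adjusted p under 0.05 over 4 or 3 libraries are named. Il9r, Ifit3, Bcl3 and Cpt1a were added after their values were seen. A gene each of 2 pathway lists and of 1 marker list are not reported here and were left out of the counts and sums. Members, lists and markers were matched by symbol, and promoters came from RefSeq (GRCm38.p6). Shared sequence was counted in GENCODE transcripts. On simulated counts, the 4-library test (1274 genes) recovered 98% of 2-fold and 100% of 4-fold changes with 8 false among 205 calls, and the 3-library test (2572 genes) 76.5% and 95.9% with 3 false among 172. The simulated spread was the same for every gene and library, while the Tc1 and Tc9 pairs differed in spread. These rates therefore need not hold for the real libraries. Protein sequences and phosphorylation were not analysed here.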

Additional observations from a re-analysis of the deposited data

How the results depend on the processing

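The 9 members kept their direction under the alternatives run for each. No STAT gene passed 2-fold (0 of 6). Socs1 kept a log2 fold change of 1.0 to 1.09 over the settings with all 3 libraries, with adjusted p from 6.76e-04 to 0.312. It missed the threshold without the filter on low counts (1.02, adjusted p = 0.312) and in limma on log2(FPKM + 0.1) (1.05, adjusted p = 0.104), and leaving out 1 Tc9 library gave 0.71 to 1.31 with no test. Cish stayed short of the threshold in all of these, with adjusted p from 0.0547 to 0.331. In the 3-library comparison, 327 genes rose and 208 fell. DESeq2 gave 217 and 119, limma on log2(FPKM + 1) 112 lower, limma on log2(FPKM + 0.1) 197 and 78, and edgeR without a filter 0 and 0 (359 and 252 at an unadjusted p under 0.05). In the 4-library comparison, 224 rose and 214 fell. Without a filter 139 fell, and leaving out 1 library gave 99 to 424 higher and 74 to 430 lower. Without Tc1 replicate 1 these were 120 and 81, without Tc1 replicate 2 99 and 74, without Tc9 replicate 1 424 and 430 and without Tc9 replicate 2 372 and 372. Past 1.5-fold in the replicate 2 comparison were 1275 genes higher and 770 lower. On FPKM + 1 these were 820 and 427, past 2-fold 647 and 291 and past the lowest fold tried 1960 and 1577. The cause of these shifts was not tested. With the replicate number as a block, the 4-library comparison gave 231 higher and 213 lower, and 406 calls were shared with the unblocked fit. Deviations of same-numbered libraries correlated at -0.06, so no pairing by number was visible. Because the 2 Tc1 libraries differed little from each other, this correlation cannot exclude pairing. No paired analysis was possible for the members, because no more than 1 replicate number is shared by the tables that reach them. The STAT genes have 1 library a group, so the data cannot show whether their ratios exceed the spread between Tc1 and Tc9 pools.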
